A study of Mus musculus with 6 samples.

Results

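Translation initiation factors load messenger RNA and the initiator transfer RNA onto the ribosome, and 49 of their genes were measured here among 19938 genes tested. The 49 are every gene whose symbol starts with Eif followed by a digit from 1 to 6 and that had at least 1 probe set (the array's set of probes for a transcript) naming that gene alone. They cover the factors themselves, the eIF4E-binding proteins and the eIF2 kinases, and 58 probe sets read them. RNA came from MC3T3-E1, an established line of mouse calvarial osteoblast precursors, labelled as strain C57BL/6 and newborn in origin, and was hybridised to 1 biotin-labelled Affymetrix array per sample. In the undifferentiated group (3 arrays), untreated cells grew in α-MEM with 10% serum and no ascorbic acid. The differentiated group (3 arrays) came from confluent cells induced for 14 days in DMEM with 10% serum, dexamethasone at 0.1 µM, ascorbic acid-2-phosphate at 0.2 mM, β-glycerophosphate at 10 mM and sodium pyruvate at 1 mM. Both groups are the same line and carry no transgene or deletion in the labels. Medium, confluence and induction compounds differ between the groups together and cannot be told apart. Independent replication is stated for both groups, and what separated the replicates is not, so the p-values measure the spread between these arrays only.

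As background, initiation starts when eIF2 carries the initiator transfer RNA to the small ribosomal subunit, together with eIF1, eIF1A, eIF3 and eIF5. The eIF4F complex, made of the cap-binding eIF4E, the scaffold eIF4G and the helicase eIF4A, brings the messenger RNA, and eIF5B joins the large subunit. Supply is controlled at a pair of points: eIF2 kinases phosphorylate eIF2 and so block its exchange factor eIF2B, and eIF4E-binding proteins hold eIF4E away from eIF4G until mTORC1 phosphorylates them. Osteoblasts secrete large amounts of collagen and other matrix proteins, which places a load on this machinery. The arrays measure messenger RNA and give neither protein amounts nor phosphorylation.

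The deposited values are log2 expression centred so that each probe set has a median of 0 over the 6 arrays. A value therefore tells how far an array lies above or below the middle of the 6, and whether a gene is expressed at all, or more than another gene, cannot be read. With 6 arrays, the middle pair of values of a probe set mirror each other around 0, which is why many genes below show the same size with opposite sign in an array of each group. All values are relative to the rest of the array, and fewer cells of a type and less RNA per cell cannot be told apart in bulk RNA. Of 11 osteoblast markers, 7 were among the genes tested: Ibsp, Dmp1, Postn and Alpl were higher in differentiated cells, Sp7 and Col1a1 lower (Sp7 not after cyclic loess scaling), and Col1a2 did not pass the test. The 9 measured markers of dividing cells were all lower, with a median log2 fold change of -2.15, and their mean centred value lay between 0.915 and 1.14 in the undifferentiated arrays, against -1.04 to -0.961 after differentiation. Of 5 macrophage markers, Cd68 (0.44) and Cd14 (0.42) were higher and Csf1r, Ptprc and Adgre1 did not pass, and the list's mean was between -0.118 and -0.0699 in undifferentiated arrays and 0.0465 to 0.206 after differentiation. Of 5 adipocyte markers Fabp4 (0.46) was higher and the others did not pass, with list means of -0.0636 to 0.0039 and -0.0213 to 0.0925. None of 4 endothelial markers passed, although 1 (Pecam1) had an unadjusted p under 0.05, and their list means were -0.124 to 0.0042 and 0.0161 to 0.0752. The part of these markers' cells in the changes of initiation factors was not tested.

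Most initiation factor genes that changed were lower in differentiated cells. Of the 49, 25 fell, 5 rose and 19 did not pass the test (limma with Benjamini-Hochberg adjustment over all genes, adjusted p under 0.05). The falls are 51.0% of the members, where 19.1% of all genes tested fell, and the rises are 10.2%, where 16.4% of all genes rose. The median log2 fold change (differentiated minus undifferentiated) was -0.17 over the 49 members and 0.02 over all genes. A fall of at least 1.5-fold was seen in 12 members (24.5%), against 5.99% of all genes, and no rise reached that size. All 3 differentiated arrays lay below all 3 undifferentiated arrays in 30 members (61.2%, against 23.0% of all genes) and above them in 7 (14.3%, against 23.2%). The largest fall was that of Eif3c, 2.22-fold, and the largest rise that of Eif4a2, 1.35-fold. Without the kinases and the eIF4E-binding proteins, 23 of 42 factors fell (54.8%) and 4 rose (9.52%). The rises numbered 3 when undifferentiated replicate 1 or differentiated replicate 3 was left out, and 3 after cyclic loess scaling.

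**Figure D1:**
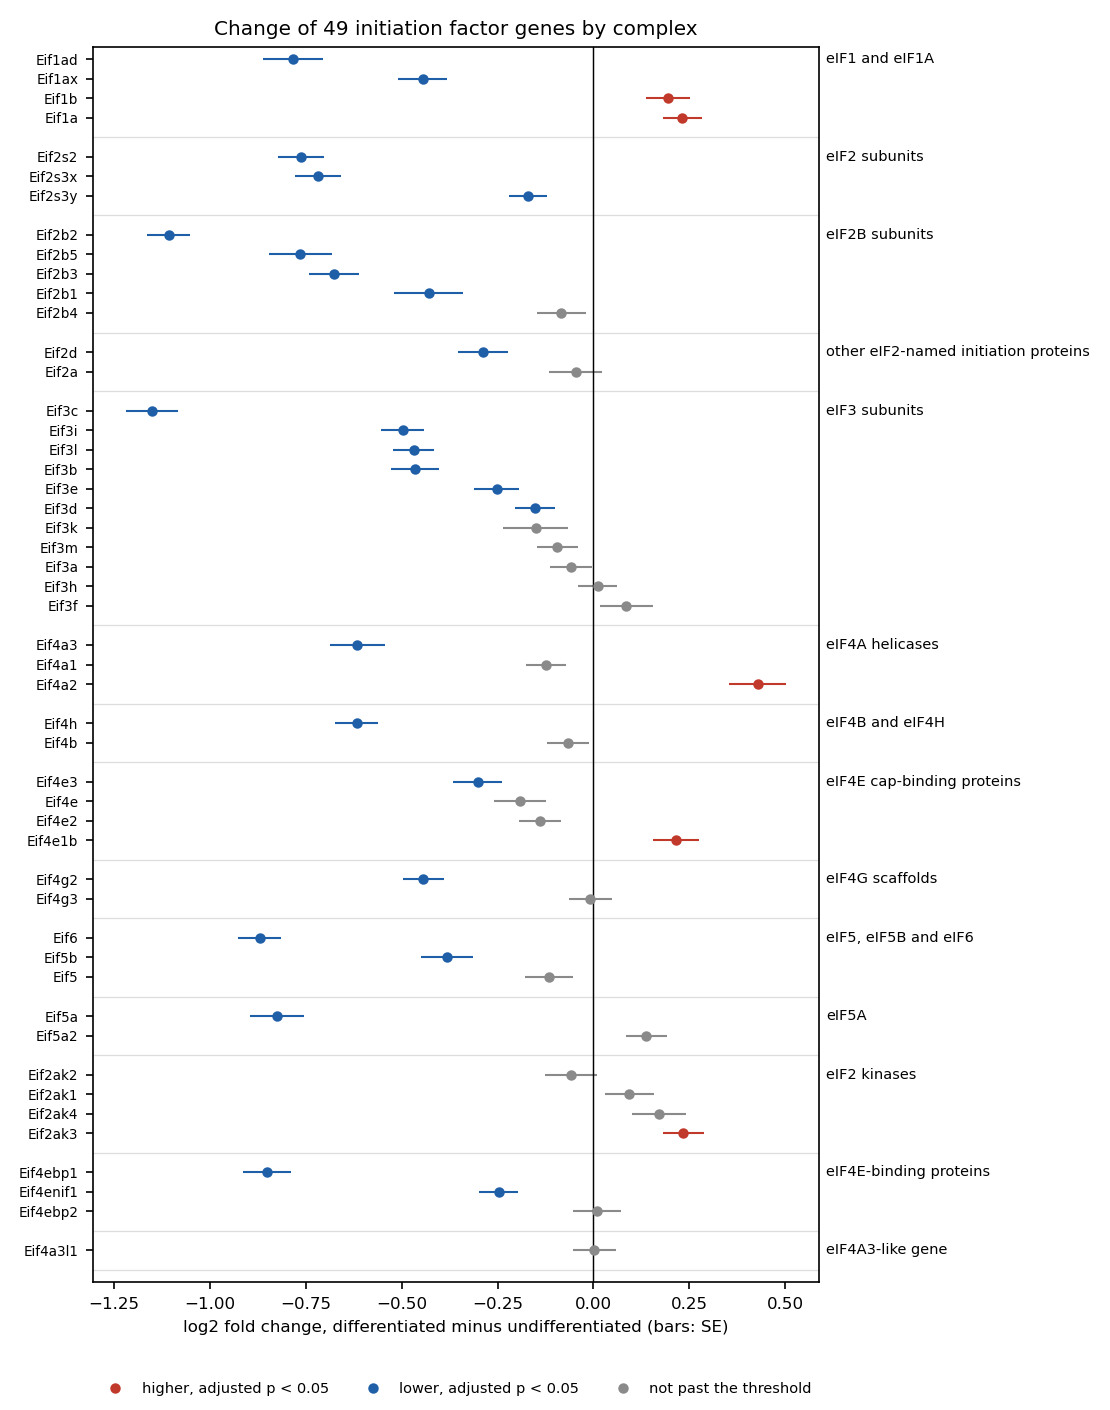
Log2 fold change (differentiated minus undifferentiated, x axis) of the 49 initiation factor genes, grouped by complex (labels at the right), with bars for the standard error of the limma fit on 3 arrays per group. Blue points are the 25 genes that fell, red the 5 that rose and grey the 19 that did not pass; the blue points reach from -0.15 in Eif3d to -1.15 in Eif3c.

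**Figure D2:**
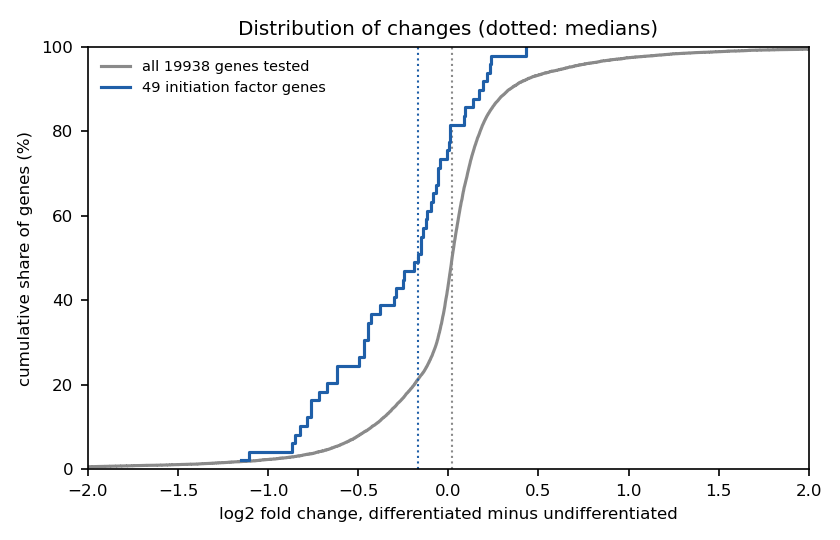
Cumulative share of genes (y axis, %) by log2 fold change (x axis, shown from -2 to 2) for all 19938 genes tested in grey and the 49 initiation factor genes in blue, with dotted lines at the medians of 0.02 and -0.17. Values below 0 were found for 37 of the 49 members and for 8737 of all genes.

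The eIF2 complex, which delivers the initiator transfer RNA, was lower in each of its 3 measured genes, where 19.1% of all genes fell. Its β subunit gene Eif2s2 stood at 0.42, 0.45 and 0.30 in undifferentiated replicates 1 to 3 and at -0.35, -0.35 and -0.42 in differentiated replicates 1 to 3. It fell by 0.76 on the log2 scale (SE 0.06, 1.70-fold, limma adjusted p = 1.11e-05). Both of its probe sets fell, with log2 fold changes of -0.65 and -0.88. The X-linked γ subunit gene Eif2s3x stood at 0.32, 0.33 and 0.30 in undifferentiated and at -0.47, -0.30 and -0.43 in differentiated arrays. Its undifferentiated values lay close together, and its fall was -0.72 ± 0.06 (SE, 1.64-fold, limma adjusted p = 1.72e-05). The Y-linked γ gene Eif2s3y changed less, -0.17 ± 0.05 (limma adjusted p = 0.0244), and did not pass when any array other than undifferentiated replicate 3 was left out (adjusted p 0.0505 to 0.0755). The α subunit gene Eif2s1 was not analysed here.

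eIF2B recharges eIF2 with GTP after each round, and 4 of its 5 subunit genes fell (80%, against 19.1% of all genes). Eif2b2, of the regulatory β subunit, stood at 0.52, 0.54 and 0.66 in undifferentiated and at -0.55, -0.52 and -0.52 in differentiated arrays. The 3 differentiated arrays were nearly equal, and the fall was 2.16-fold (-1.11 ± 0.06 SE on the log2 scale, limma adjusted p = 8.49e-07). Eif2b5, of the catalytic ε subunit, stood at 0.46, 0.36 and 0.25 in undifferentiated and at -0.49, -0.25 and -0.48 in differentiated arrays. It fell by 0.76 (SE 0.08, 1.70-fold, limma adjusted p = 9.13e-05), with wider spread in both groups than Eif2b2. Eif2b3, of the γ subunit that pairs with ε, fell by 0.68 (SE 0.06, 1.60-fold), and Eif2b1, of the α subunit, by 0.43 (SE 0.09, 1.35-fold). After cyclic loess scaling the value of Eif2b1 was -0.20 (limma adjusted p = 0.0427). Undifferentiated replicate 3 of Eif2b1 was at 0.080, well under the 0.39 and 0.40 of replicates 1 and 2, but still above every differentiated array. The δ subunit gene Eif2b4 was the exception at -0.08 ± 0.06 (limma adjusted p = 0.378), and its groups overlapped. The median over the 5 subunits was -0.68.

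Of a pair of further proteins named for eIF2, Eif2d, which can bind initiator transfer RNA outside the eIF2 route and acts in recycling, fell by 0.29 (SE 0.07, limma adjusted p = 0.0075). Eif2a, another factor of that kind and not a subunit of eIF2, was at -0.05 ± 0.07 (adjusted p = 0.679) with overlapping groups.

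Of the 4 eIF2 kinases, each of which answers a different stress, 1 rose, none fell and 3 did not pass, where 16.4% of all genes rose and 19.1% fell. At an unadjusted p under 0.05 in the limma fit Eif2ak4 also rose and none fell, and no share over all genes is given at that cutoff. So few genes do not set the kinases apart from other genes. Eif2ak3, the endoplasmic reticulum kinase PERK, stood at -0.13, -0.20 and -0.085 in undifferentiated and at 0.11, 0.085 and 0.097 in differentiated arrays. Every differentiated array was above every undifferentiated one, and the rise was 1.18-fold (0.23 ± 0.05 SE, limma adjusted p = 0.00766). Eif2ak4, the amino acid sensor GCN2, stood at -0.032, -0.016 and -0.23 in undifferentiated and at 0.11, 0.11 and 0.016 in differentiated arrays. Undifferentiated replicate 3 was the low one, the groups did not overlap, and the value of 0.17 ± 0.07 did not pass (adjusted p = 0.0925). Eif2ak1, the haem-regulated kinase, stood at -0.12, 0.041 and -0.13 in undifferentiated and at 0.073, 0.010 and -0.010 in differentiated arrays. Undifferentiated replicate 2 lay among the differentiated values, and the difference was 0.09 ± 0.06 (adjusted p = 0.307). Eif2ak2, the double-stranded RNA kinase PKR, stood at 0.042, 0.045 and -0.042 in undifferentiated and at -0.060, 0.071 and -0.14 in differentiated arrays, a difference of -0.06 ± 0.07 (adjusted p = 0.570) with overlapping groups.

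eIF1 and eIF1A, which open the small subunit for scanning and guard start codon choice, moved in both directions. Eif1a stood at -0.17, -0.096 and -0.12 in undifferentiated and at 0.11, 0.11 and 0.096 in differentiated arrays. It was 1.17-fold higher (0.23 ± 0.05 SE, limma adjusted p = 0.00601), with little spread among differentiated arrays. Its X-linked paralogue Eif1ax was 1.36-fold lower (-0.44 ± 0.06, limma adjusted p = 0.000556). Eif1b, a paralogue of Eif1, stood at -0.16, -0.042 and -0.17 in undifferentiated and at 0.055, 0.12 and 0.042 in differentiated arrays, a rise of 0.19 ± 0.06 (limma adjusted p = 0.0278). That call did not hold after cyclic loess scaling (adjusted p = 0.0756) or without any array other than undifferentiated replicate 2 (0.0547 to 0.0912), so the group then held 1 rise. Eif1ad, whose protein carries an eIF1A-like domain, stood at 0.50, 0.48 and 0.26 in undifferentiated and at -0.41, -0.26 and -0.44 in differentiated arrays. Undifferentiated replicate 3 was lower than the other two but above all differentiated arrays, and the fall was 1.72-fold (-0.78 ± 0.08, limma adjusted p = 5.74e-05). Eif1 itself was not analysed here. Probe sets that name Eif1a together with other genes, and so count for none of them, differed between the groups by 0.25, 0.31, 0.10 and 0.30. In each of these the groups overlapped.

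eIF3, the largest initiation factor, binds the small subunit and connects it with the eIF4G-bound messenger RNA. Of its 11 measured subunit genes, 6 fell (54.5%, against 19.1% of all genes). None rose at the adjusted threshold, where 16.4% of all genes rose. None rose at an unadjusted p under 0.05 either, for which no share over all genes is given. One subunit stood apart in size. Eif3c stood at 0.62, 0.53 and 0.50 in undifferentiated and at -0.58, -0.50 and -0.71 in differentiated arrays, so the groups were far apart. Its fall was 2.22-fold (-1.15 ± 0.07 SE on the log2 scale, limma adjusted p = 1.89e-06). The other falls were Eif3i (-0.50 ± 0.06), Eif3l (-0.47 ± 0.05), Eif3b (-0.47 ± 0.06), Eif3e (-0.25 ± 0.06) and Eif3d (-0.15 ± 0.05). Eif3d was the least secure of them, since its adjusted p of 0.0477 rose above 0.05 without any array other than undifferentiated replicate 3 (0.0740 to 0.136) and with the replicate number as a block (0.0694).

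By position in the complex, both measured genes of the module that holds subunits b, g and i fell. Of the 8 subunits of the eIF3 octamer (a, c, e, f, h, k, l and m), 3 fell (37.5%, against 19.1% of all genes) and 5 did not pass. So few genes do not set these parts of eIF3 apart from each other. The octamer genes had a median of -0.12 and spanned -1.15 in Eif3c to 0.09 in Eif3f. Those not past the threshold were Eif3k (-0.15 ± 0.09), Eif3m (-0.09 ± 0.05), Eif3a (-0.06 ± 0.05), Eif3h (0.01 ± 0.05) and Eif3f (0.09 ± 0.07). Groups overlapped in 4 of these 5, all but Eif3m, whose probe sets disagreed: probe set 10485635 fell (-0.22 ± 0.05, adjusted p = 0.0116 over all probe sets) and probe set 10353475 was at 0.03 ± 0.07. A pair of probe sets that read both Eif3j1 and Eif3j2, and so count for neither, differed between the groups by -0.41 and -0.39. Eif3g was not analysed here.

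Of the 3 eIF4A helicase genes, 1 rose (33.3%, against 16.4% of all genes), 1 fell (33.3%, against 19.1%) and 1 did not pass. So few genes do not set the helicases apart from other genes. Eif4a2 stood at -0.33, -0.12 and -0.39 in undifferentiated and at 0.18, 0.15 and 0.12 in differentiated arrays. It had the largest rise among the members, 1.35-fold (0.43 ± 0.07 SE, limma adjusted p = 0.0016), with most of its spread in the undifferentiated arrays. After cyclic loess scaling its value was 0.26 and did not pass (adjusted p = 0.0795; the other settings ranged from 0.000419 to 0.00866). Its paralogue Eif4a1, the form most used in growing cells, stood at 0.050, 0.13 and 0.034 in undifferentiated and at -0.037, -0.079 and -0.043 in differentiated arrays. The groups did not overlap, but the difference of -0.12 ± 0.05 did not pass (adjusted p = 0.105), and its 3 probe sets gave -0.12, -0.12 and -0.13. Eif4a3, the helicase of the exon junction complex rather than of eIF4F, stood at 0.32, 0.44 and 0.21 in undifferentiated and at -0.31, -0.35 and -0.21 in differentiated arrays, a fall of 1.53-fold (-0.62 ± 0.07, limma adjusted p = 0.000148). A related gene, Eif4a3l1, was at 0.0026 ± 0.056 (adjusted p = 0.980), and a pair of probe sets shared by Eif4a3 and Eif4a3l1 differed by -0.49 and -0.51.

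Of the proteins that stimulate the helicase, Eif4h fell by 0.62 (SE 0.06, 1.53-fold, limma adjusted p = 2.84e-05), while Eif4b, the other activator of eIF4A, was at -0.07 ± 0.05 (adjusted p = 0.409) with overlapping groups.

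Among the cap-binding proteins, the main one, Eif4e, did not pass. It stood at 0.22, 0.11 and -0.014 in undifferentiated and at -0.066, -0.069 and -0.13 in differentiated arrays, so that undifferentiated replicate 3 came close to the differentiated ones. Its difference of -0.19 ± 0.07 (limma adjusted p = 0.0556) passed without that array (-0.25, adjusted p = 0.0140), with array weights (0.0327) and with the replicate number as a block (0.0449). Its 3 probe sets disagreed: 10599855 fell (-0.42 ± 0.07, adjusted p = 0.00178 over all probe sets), 10496485 was at -0.24 ± 0.11 and 10496490 at 0.08 ± 0.08. Eif4e2, a cap-binding protein that represses translation, stood at 0.067, 0.10 and 0.022 in undifferentiated and at -0.022, -0.088 and -0.12 in differentiated arrays, -0.14 ± 0.05 (adjusted p = 0.0784). Eif4e3, an atypical cap-binding form, stood at 0.29, 0.15 and 0.087 in undifferentiated and at -0.12, -0.18 and -0.087 in differentiated arrays, a fall of 1.23-fold (-0.30 ± 0.06, limma adjusted p = 0.00563). Eif4e1b, a form known from germ cells, stood at -0.19, -0.12 and -0.053 in undifferentiated and at 0.059, 0.057 and 0.17 in differentiated arrays. Its rise of 0.21 ± 0.06 (limma adjusted p = 0.0218) rested on probe set 10405334 (0.35 ± 0.08), since 10359518 was at 0.08 ± 0.06 (adjusted p = 0.300), and it was lost without undifferentiated replicate 1 or 2 or differentiated replicate 3 (0.0563 to 0.0865), which left 0 rises in the group.

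**Figure D3:**
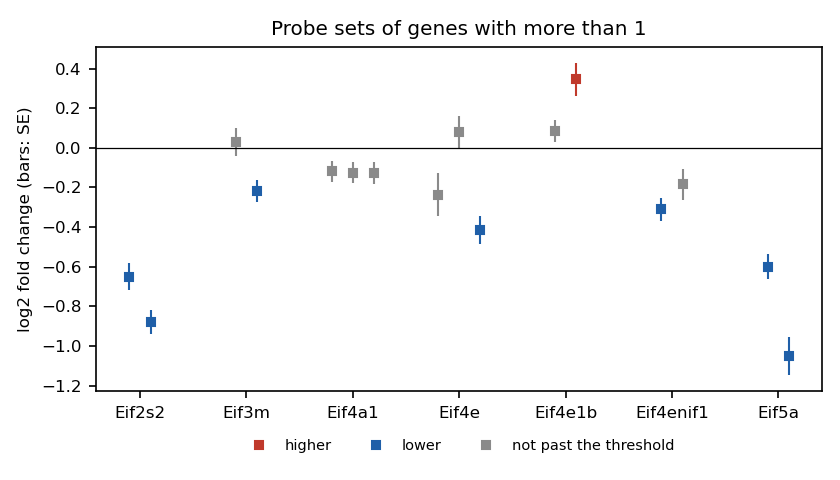
Log2 fold change (y axis, bars for the standard error) of each probe set of the 7 members with more than 1, fitted by itself with adjustment over all probe sets; blue fell, red rose and grey did not pass. Probe sets of Eif2s2 and Eif5a fell alike in direction, those of Eif4a1 nearly coincide, and those of Eif3m, Eif4e, Eif4e1b and Eif4enif1 fall on both sides of the threshold.

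Of the eIF4G scaffolds, which hold eIF4E, eIF4A and eIF3 together, Eif4g2 fell and Eif4g3 did not pass. Eif4g2, which lacks the eIF4E-binding part and serves cap-independent initiation, stood at 0.19, 0.24 and 0.20 in undifferentiated and at -0.21, -0.19 and -0.30 in differentiated arrays. The fall was 1.36-fold (-0.44 ± 0.05 SE, limma adjusted p = 0.000189). Eif4g3 stood at 0.029, -0.084 and 0.012 in undifferentiated and at 0.0046, -0.0046 and -0.066 in differentiated arrays, a difference of -0.0076 ± 0.056 (adjusted p = 0.941) with overlapping groups. Eif4g1 was not analysed here.

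The eIF4E-binding proteins compete with eIF4G for eIF4E, and the best known of them had the fourth largest fall of all members. Eif4ebp1 stood at 0.37, 0.46 and 0.37 in undifferentiated and at -0.55, -0.44 and -0.37 in differentiated arrays. It fell 1.81-fold (-0.85 ± 0.06 SE, limma adjusted p = 7.67e-06), and the groups were far apart. Eif4ebp2 stood at 0.053, -0.054 and 0.0089 in undifferentiated and at -0.062, 0.11 and -0.0089 in differentiated arrays, which overlapped fully (0.01 ± 0.06, adjusted p = 0.926). Eif4enif1, which carries eIF4E into the nucleus and to sites of messenger RNA storage, stood at 0.19, 0.13 and 0.13 in undifferentiated and at -0.12, -0.076 and -0.10 in differentiated arrays. It fell by 0.25 (SE 0.05, limma adjusted p = 0.00439), through probe set 10373709 (-0.31 ± 0.06, adjusted p = 0.00285 over all probe sets) more than through 10407568 (-0.18 ± 0.08, adjusted p = 0.100). A probe set that names both Ankhd1 and Eif4ebp3, and so counts for neither, differed between the groups by -0.17.

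Of the genes for eIF5, eIF5B and eIF6, 2 of 3 fell (66.7%, against 19.1% of all genes). Eif6, which keeps the large subunit from joining too early and takes part in its assembly, stood at 0.51, 0.38 and 0.51 in undifferentiated and at -0.42, -0.38 and -0.41 in differentiated arrays. The differentiated arrays were nearly equal, and the fall was 1.83-fold (-0.87 ± 0.06 SE, limma adjusted p = 3.54e-06). Eif5b, the GTPase that joins the subunits, fell by 0.38 (SE 0.07, 1.30-fold, adjusted p = 0.00202). Eif5, which triggers GTP hydrolysis by eIF2, was at -0.12 ± 0.06 (adjusted p = 0.192). A probe set that names both Snora28 and Eif5, and so counts for neither, differed the other way, by 0.26, with overlapping groups.

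eIF5A, named as an initiation factor and now known mainly for elongation and termination, is the carrier of the amino acid hypusine. Eif5a stood at 0.44, 0.55 and 0.32 in undifferentiated and at -0.45, -0.32 and -0.39 in differentiated arrays. It fell 1.77-fold (-0.82 ± 0.07 SE, limma adjusted p = 2.08e-05), by -0.60 and -1.05 in its probe sets 10387733 and 10523058. Its paralogue Eif5a2 was at 0.14 ± 0.05 (adjusted p = 0.0776), with every differentiated array above every undifferentiated one. Of the enzymes that make hypusine, Dohh fell (-0.39 ± 0.07, adjusted p = 0.00181) and Dhps was at -0.13 ± 0.06 (adjusted p = 0.152).

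**Figure D4:**
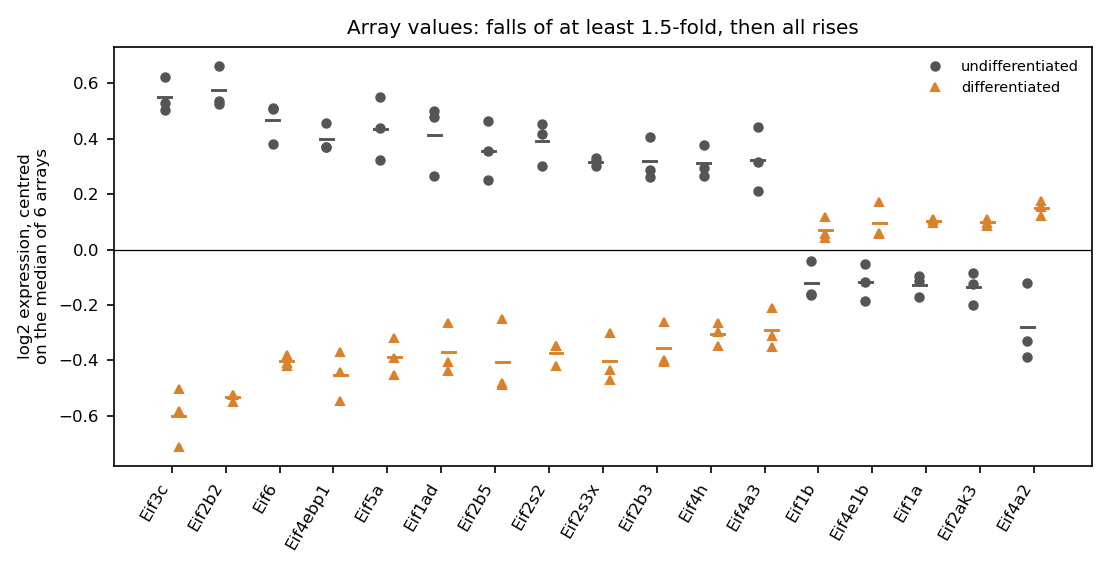
Centred log2 expression (y axis) in each array for the 12 members that fell at least 1.5-fold and the 5 that rose (x axis), with grey circles for the 3 undifferentiated and orange triangles for the 3 differentiated arrays and short lines for group means. In the falls every undifferentiated value is 0.21 or higher and every differentiated value -0.21 or lower, while the rises lie between -0.39 and 0.18.

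For 5 pairs of paralogues, picked after their values were seen to differ, the difference of the 2 genes within each array is given as a description, with no test. In 3 of the pairs one gene did not pass by itself (Eif4a1, Eif5a2 and Eif4ebp2). Eif4a2 minus Eif4a1 was -0.35 ± 0.09 (SD, n = 3) in undifferentiated and 0.20 ± 0.03 in differentiated arrays, a shift of 0.55 (0.38 after cyclic loess scaling). For Eif1a minus Eif1ax the means were -0.38 ± 0.09 and 0.30 ± 0.05, a shift of 0.68. Eif5a2 minus Eif5a went from -0.50 ± 0.15 to 0.46 ± 0.06, a shift of 0.96, and Eif4ebp2 minus Eif4ebp1 from -0.40 ± 0.10 to 0.47 ± 0.10, a shift of 0.86. In Eif2s3y minus Eif2s3x the shift was 0.55 (0.63 after cyclic loess scaling), from -0.23 ± 0.0093 to 0.31 ± 0.07. Since the values are centred, these differences describe changes and not which paralogue is the more abundant.

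Promoter sequence from RefSeq (build GRCm38.p6, 250 bases before to 50 after a gene's start) was available for 39 of the 49 members and was searched because so many members fell together. No window was found under the symbols Eif6, Eif4ebp1, Eif2b3, Eif3i, Eif4g2, Eif4e3, Eif3e, Eif3h, Eif4e1b and Eif1a. The ETS core CGGAAG (or CTTCCG on the other strand), the E-box CACGTG and the C/EBP-ATF core TGATGNAA (or TTNCATCA) were searched on both strands, and none of these motifs contains another. A gene counts if any of its windows holds the motif, and some genes have several windows, so shares of windows are a different measure. The ETS core was found in 22 of 39 members (56.4%), against 24.7% of all genes tested that have a window, 40.0% of all genes that fell and 16.9% of all windows. Among the members it was found in 11 of 18 that fell, 9 of 18 that did not pass and 2 of 3 that rose. The E-box was found in 9 of 39 members (23.1%, against 9.50% of genes and 7.15% of windows), 2 of them among the 18 that fell and 6 among the 18 that did not pass. The C/EBP-ATF core was found in 1 member, Eif2s3x (2.56%, against 3.62% of genes and 3.97% of windows). A match of letters is not a bound site.

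The stretches below show, in capitals, the ETS core nearest before the start, leaving out any match that ends within a few bases of it. They come from 4 members that fell (Eif3c, Eif1ad, Eif4a3 and Eif3l), the member with the largest rise (Eif4a2) and 2 that did not pass (Eif4a1 and Eif4ebp2). They are printed 5′ to 3′ on the strand of the gene and show that the same letters stand before genes of all 3 outcomes. The positions in GRCm38.p6 are chr7:126566367-126566430 for Eif3c (minus strand), chr19:5366626-5366691 for Eif1ad (plus), chr11:119300069-119300134 for Eif4a3 (minus) and chr15:79075158-79075222 for Eif3l (plus). Those of the other stretches are chr16:23107378-23107443 for Eif4a2 (plus), chr11:69672513-69672578 for Eif4a1 (minus) and chr10:61452758-61452823 for Eif4ebp2 (minus). The core starts 34 bases before the gene's start in Eif3c, 157 in Eif1ad, 61 in Eif4a3, 35 in Eif3l, 60 in Eif4a2, 125 in Eif4a1 and 124 in Eif4ebp2.
Eif3c: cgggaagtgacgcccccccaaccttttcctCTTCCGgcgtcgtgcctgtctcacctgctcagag
Eif1ad: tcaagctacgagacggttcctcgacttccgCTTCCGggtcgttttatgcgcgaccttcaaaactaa
Eif4a3: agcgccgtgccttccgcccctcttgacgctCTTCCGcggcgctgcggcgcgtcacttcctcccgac
Eif3l: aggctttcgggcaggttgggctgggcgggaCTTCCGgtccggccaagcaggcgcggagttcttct
Eif4a2: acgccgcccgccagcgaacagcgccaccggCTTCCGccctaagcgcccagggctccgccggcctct
Eif4a1: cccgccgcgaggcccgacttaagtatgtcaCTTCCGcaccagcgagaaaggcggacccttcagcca
Eif4ebp2: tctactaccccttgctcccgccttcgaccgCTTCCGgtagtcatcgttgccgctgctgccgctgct

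Of 8 measured genes that control the eIF2 kinases or reverse their effect, 3 rose (37.5%, against 16.4% of all genes), 2 fell (25%, against 19.1%) and 3 did not pass. So few genes do not set this list apart from all genes in either direction. Impact, whose protein restrains the kinase GCN2, rose 2.40-fold (1.26 ± 0.07 SE, limma adjusted p = 9.08e-07). The adaptor Nck1 (0.37 ± 0.08) and Ppp1r15a (0.19 ± 0.05), the inducible subunit of the eIF2 phosphatase, rose less, and Prkra (-0.25 ± 0.07), an activator of PKR, fell. Atf4, the transcription factor translated when eIF2 is phosphorylated, was at -0.15 ± 0.06 (adjusted p = 0.0809, and 0.0343 without undifferentiated replicate 3). The falls numbered 0 to 1 when an array was left out, with 0 without differentiated replicate 1 and 1 without each other one. The rises numbered 2 to 3 in the same fits.

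Of 20 measured genes listed under mTORC1 and MNK control, 6 rose (30%, against 16.4% of all genes), 5 fell (25%, against 19.1%) and 9 did not pass. The median was -0.01, and the share of falls was near that of all genes. Pdcd4, which binds eIF4A and keeps it from eIF4G, rose 3.68-fold (1.88 ± 0.08 SE, limma adjusted p = 3.37e-07). Deptor, an inhibitor that binds mTOR, rose 2.67-fold (1.42 ± 0.06), and Sesn1, an inhibitor of mTORC1, 1.87-fold (0.90 ± 0.06). Its paralogue Sesn2 fell by 0.80 (SE 0.08). Mtor itself was at -0.02 ± 0.06 (adjusted p = 0.869). Mknk2, a kinase of eIF4E named after its value was seen, rose 1.58-fold (0.66 ± 0.08). The other called genes are also named afterwards. Tbc1d7 (-0.66 ± 0.10), Larp1 (-0.47 ± 0.08), Mlst8 (-0.43 ± 0.07) and Ddit4l (-0.26 ± 0.09) fell. Ddit4 (0.31 ± 0.07) and Sesn3 (0.28 ± 0.07) rose. Ddit4l did not pass with the replicate number as a block (limma adjusted p = 0.0716).

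Beside the counts of the next lists stand the shares over all genes, of which 19.1% fell and 16.4% rose. Of 8 genes of recycling and non-canonical initiation, 6 fell (75%) and 2 did not pass. The falls were led by Bzw2, an eIF5-like protein (-1.31 ± 0.07, 2.47-fold), with Denr (-0.60 ± 0.06), the recycling ATPase Abce1 (-0.51 ± 0.06) and Bzw1 (-0.42 ± 0.06). They also include the mitochondrial initiation factors Mtif2 (-0.36 ± 0.06) and Mtif3 (-0.34 ± 0.07), named afterwards. Of 4 poly(A)-binding protein genes and partners, 3 fell (75%), though only 1 passed without differentiated replicate 3. They were Paip2b (-0.45 ± 0.05), Paip1 (-0.29 ± 0.09) and Pabpc1 (-0.20 ± 0.05). Of 6 genes listed as cap competitors or partners, Gigyf2 (0.23 ± 0.06) and Gigyf1 (0.22 ± 0.05), which bind the repressor encoded by Eif4e2, rose, but only 1 of them passed without undifferentiated replicate 1 or differentiated replicate 1. Nolc1, a nucleolar protein in the same list, fell (-0.47 ± 0.09). Rises were 33.3% of this list and falls 16.7%, and so few genes do not set it apart from all genes. Of 10 genes of elongation and termination, 4 fell (40%) and 6 did not pass. The falls were Eef1e1, a scaffold of the transfer RNA synthetase complex (-0.87 ± 0.06), the release factor Gspt1 (-0.69 ± 0.06), Eef1d (-0.18 ± 0.06) and Eef1b2 (-0.17 ± 0.05). Eef1d and Eef1b2 passed without differentiated replicate 1 but not without any other array, and the falls then numbered 2 to 3. Eef1a1 (0.13 ± 0.05) and Eef2 (-0.02 ± 0.05), the main elongation factors, did not pass and are named outside the rule.

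**Figure D5:**
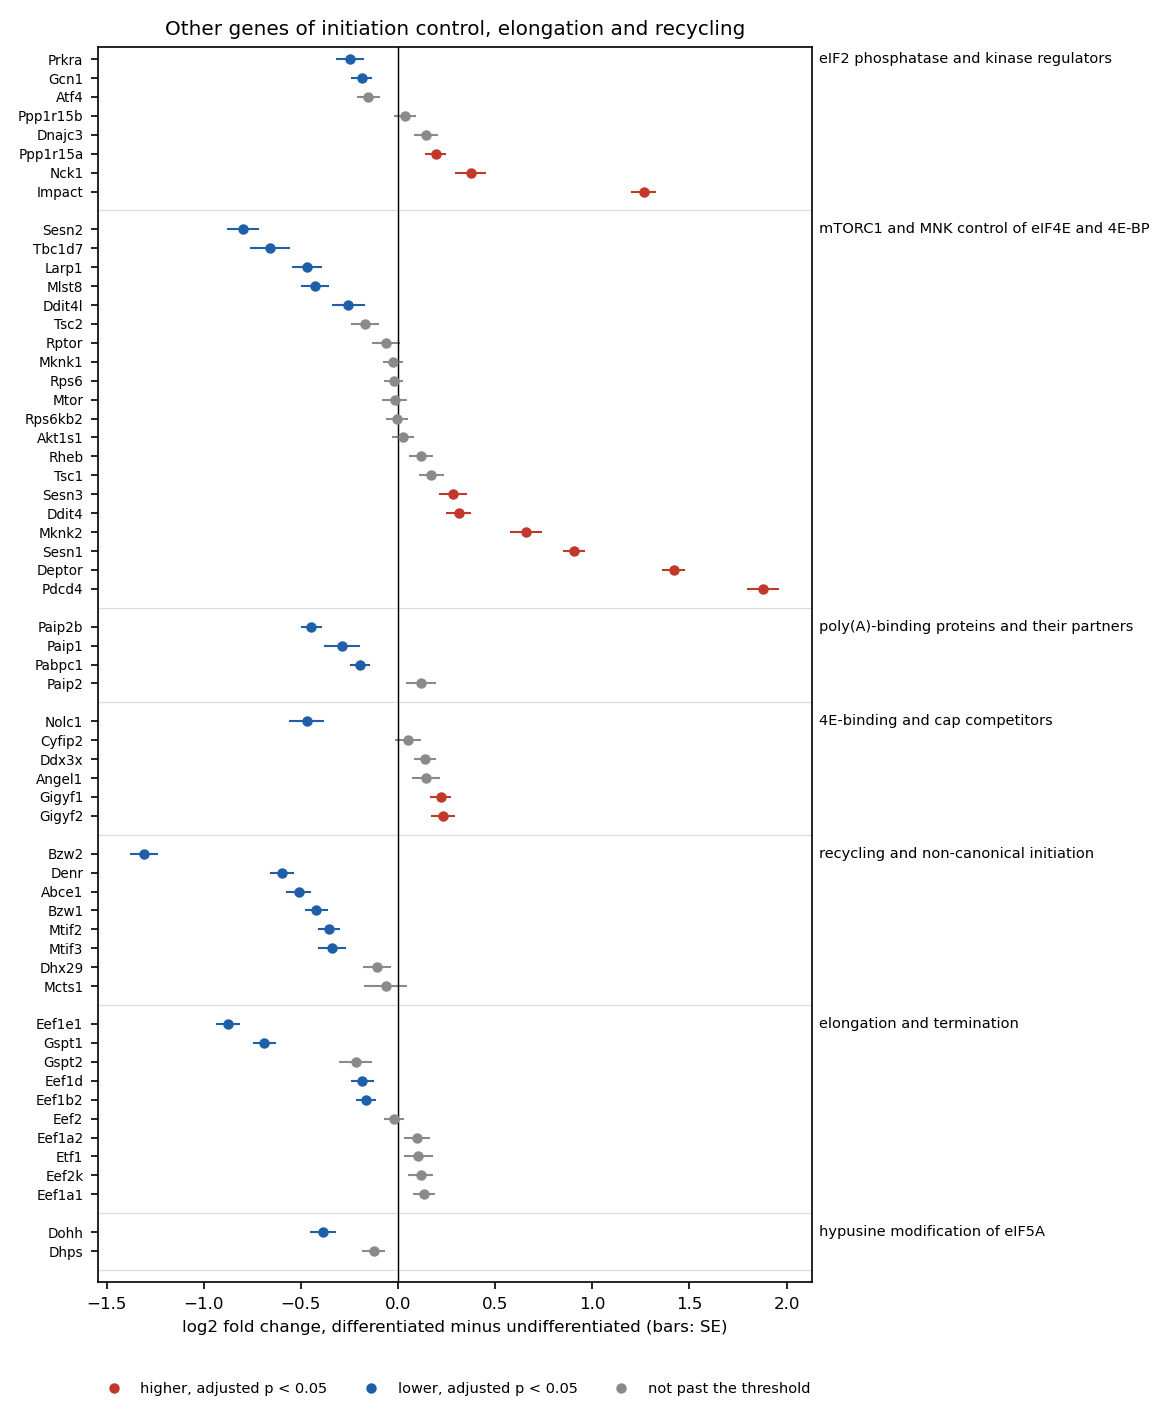
Log2 fold change (differentiated minus undifferentiated, x axis, bars for the standard error) of the 58 measured genes of the 7 other lists, grouped by list at the right; red rose, blue fell and grey did not pass. Pdcd4, Deptor and Impact lie farthest to the right, between 1.26 and 1.88, and Bzw2 farthest to the left at -1.31.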

How the data were processed

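Log2 expression values were deposited by the authors after RMA, which corrects background, normalizes by quantiles and summarises probes; the submitters' processing notes name it with no version. The centring to a median of 0 is seen only in the values and holds for all 28856 probe sets to within 1e-06. It removes the level, so no filter on dim genes was possible. Gene names are those of the platform annotation, and a RefSeq table (GRCm38.p6) gave current symbols by gene ID. Of the probe sets, 21789 name 1 gene (21698 matched by ID), 1621 several and 5446 none. Those naming 1 gene were averaged per gene. Differentiated minus undifferentiated was fitted with limma 3.58.1 in R 4.3.3 (lmFit and eBayes, two-sided, no block) on all 6 arrays, with Benjamini-Hochberg adjustment over 19938 genes, and errors are moderated standard errors. The fit was tested on simulated data. No depth applies to arrays, and 3 per group limit the precision. Members, lists and tests were chosen with earlier results of these data known. Every member is given with its change. Array values are given for the kinases, the eIF4E-binding, eIF4E, eIF4A and eIF4G genes and up to 8 further members with the largest rises and falls past the threshold. Up to 4 genes per other list are named by size of change, plus Atf4, Mtor and Pdcd4, and those marked were named afterwards. Alternatives were the replicate block, 3 scalings, 3 ways of treating probe sets, array weights, robust eBayes, platform symbols and leaving out each array.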

Additional observations from a re-analysis of the deposited data

How the results depend on the processing

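Across 16 alternative settings, 22 of the 25 falls and 2 of the 5 rises among the members passed in each setting that tested them. The exceptions were Eif2s3y, Eif3d and Eif4enif1 among the falls and Eif1b, Eif4a2 and Eif4e1b among the rises. No member past the threshold changed sign. The rises numbered 3 after cyclic loess scaling, with 1 for eIF1 and eIF1A and 0 for eIF4A, and 25 members fell. With only the lowest-numbered probe set, or every probe set required to pass, the cap-binding proteins held 0 rises, and in the second case the eIF4E-binding proteins held 1 fall. Restricting the test to genes with 1 probe set leaves 42 members, without Eif2s2, Eif3m, Eif4a1, Eif4e, Eif4e1b, Eif4enif1 and Eif5a. It gave 0 rises for cap-binding proteins, 1 fall for eIF4E-binding proteins and 0 for eIF5A, with 2 falls for eIF2 and 5 for eIF3, where Eif3d did not pass. With array weights the cap-binding falls numbered 2. When each array was left out, rises numbered 3 to 4 over all members, 1 to 2 for eIF1 and eIF1A and 0 to 1 for cap-binding proteins, whose falls numbered 1 to 2. In the same way, cap competitors held 1 to 2 rises and eIF2 kinase regulators 2 to 3. Falls numbered 0 to 1 among eIF2 kinase regulators, 2 to 5 in elongation and 1 to 3 among poly(A) partners.

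With the replicate number as a block, 25 members fell and 5 rose, as without it, Eif3d being replaced by Eif4e among the falls, which gave 2 falls among cap-binding proteins. The residuals of same-numbered arrays correlated at -0.0013, 0.069 and 0.16 across genes, and those of the other pairs at -0.18 to 0.13. Undifferentiated replicates 2 and 3 correlated best with the differentiated array of their own number. Undifferentiated replicate 1 correlated best with differentiated replicate 2 (0.13). Whether same-numbered arrays belong together was not tested. The planned filter on dim genes needs a level and was not run. Signal over background is unknown for every gene, past the threshold or not. This limits what can be said of small calls, such as those of Eif4e1b and Eif2s3y. It equally limits what did not pass, such as Eif4e1b's second probe set or Eif4a3l1.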
